A study of Mus musculus with 65 samples.

Results

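Myo15, Car9, Ccdc63, Col5a1, Rnf19b, Hpcal1 and Car7 are 7 of the 49670 gene IDs in the count table, and all 7 were found under their mouse symbols. They were chosen by their cerebellar log2 differences between vehicle-treated Atxn1[82Q] knockin and wild type mice, either for a large fall or for one restricted to cerebellum. Differences between those groups are therefore given as a description, without a test. The study measured RNA in 65 libraries from C57BL/6J mice, a model of spinocerebellar ataxia type 1. Atxn1[82Q] knockin mice, in which the mouse ataxin gene carries an expanded CAG repeat, were dosed with vehicle or with an antisense oligonucleotide (ASO) that targets Atxn1. The wild type mice were dosed with vehicle only. Each of these 3 groups had 4 cerebellum libraries at 18 weeks, 3 medulla and 3 pons libraries at 18 weeks, and 4 pons libraries at 28 weeks. Medulla at 28 weeks was sampled in 2 labelled batches, with 8 libraries of wild type, 8 of knockin with vehicle and 7 of knockin with ASO. The sample labels do not say whether each library is 1 animal. The column names of the count table carry a further number whose meaning is not stated. It differs between all libraries of a region and age, and it recurs across regions. At 28 weeks all 12 pons libraries share theirs with medulla. At 18 weeks 6 of the 12 cerebellum libraries, 1 of them wild type, share theirs with medulla and with pons. P-values therefore measure the spread between libraries, which may be technical.

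Spinocerebellar ataxia type 1 is best known for the dysfunction and late loss of Purkinje cells, through which the cerebellar cortex sends its output. Ataxin with an expanded glutamine tract acts in the nucleus, where it binds the transcriptional repressor Capicua, and many neuronal genes are lowered in the cerebellum of mouse models before cells are lost. The 7 genes have no common pathway. Car9 and Car7 are carbonic anhydrases, which interconvert carbon dioxide and bicarbonate: Car9 sits in the plasma membrane with its catalytic domain outside the cell and is a classic target of hypoxia-inducible factors (HIF), and Car7 is a cytosolic form found in neurons. Myo15 encodes an unconventional myosin that carries proteins to the tips of hair cell stereocilia in the inner ear. Ccdc63 encodes a coiled-coil protein related to docking factors of outer dynein arms. Col5a1 encodes a chain of type V collagen, which takes part in starting collagen fibrils. Rnf19b encodes a RING-between-RING ubiquitin ligase, and Hpcal1 a calcium sensor of the visinin-like family.

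All 7 are protein-coding genes, and none lies on chromosome 13, which holds Atxn1. On GRCm38, Myo15 (ENSMUSG00000042678) spans chr11:60469339-60528369 and Col5a1 (ENSMUSG00000026837) spans chr2:27886425-28039514. Car9 (ENSMUSG00000028463) spans chr4:43506966-43513729, and Rnf19b (ENSMUSG00000028793) spans chr4:129058271-129085886. Hpcal1 (ENSMUSG00000071379) spans chr12:17690856-17791933 and Car7 (ENSMUSG00000031883) spans chr8:104534689-104550343. Ccdc63 (ENSMUSG00000043036) spans chr5:122108040-122140823 and is the only member on the minus strand. Annotated genes on the opposite strand share 9.29% of the exonic bases of Car9 (Gm12454), 0.816% of those of Ccdc63 (Myl2), and 1.17% and 1.33% of those of Col5a1. The strand setting of the counting was not given in the sources used here, so reads in those bases cannot be told apart. Gm12454 held 16 to 89 reads per cerebellum library, against 108 to 763 for Car9, and Myl2 held 10 to 62.

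The promoters of 6 of the 7 members were matched in the RefSeq table for GRCm38.p6. They are shown for Myo15, the largest fall, and for Rnf19b and Hpcal1, the most abundant members. Each line gives the 250 bases before the RefSeq start site on the plus strand, 5′ to 3′, with none of the searched motifs found.
Myo15, chr11:60469089-60469338: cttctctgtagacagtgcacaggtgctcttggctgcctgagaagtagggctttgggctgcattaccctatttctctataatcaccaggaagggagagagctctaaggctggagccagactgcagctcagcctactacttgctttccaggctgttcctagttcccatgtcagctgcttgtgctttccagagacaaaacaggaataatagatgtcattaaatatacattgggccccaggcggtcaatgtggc
Rnf19b, chr4:129057894-129058143: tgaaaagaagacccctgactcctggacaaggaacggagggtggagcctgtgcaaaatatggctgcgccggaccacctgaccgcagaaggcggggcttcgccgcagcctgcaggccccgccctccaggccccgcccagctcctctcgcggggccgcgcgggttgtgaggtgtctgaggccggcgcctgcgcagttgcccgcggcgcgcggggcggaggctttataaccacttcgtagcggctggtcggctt
Hpcal1, chr12:17690559-17690808: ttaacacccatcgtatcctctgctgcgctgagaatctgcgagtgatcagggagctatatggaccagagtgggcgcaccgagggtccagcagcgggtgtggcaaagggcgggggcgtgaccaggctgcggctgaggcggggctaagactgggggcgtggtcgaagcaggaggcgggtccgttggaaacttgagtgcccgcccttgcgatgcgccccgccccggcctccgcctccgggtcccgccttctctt
The motifs searched on both strands were the Capicua octamers TGAATGAA and TGAATGGA, the ROR core AGGTCA and the HIF core ACGTG. Neither octamer occurred before any of the 6 members, and they occurred in 1.08% and 1.01% of 32851 windows of the same length. ACGTG occurred before Car9 and Col5a1, against 16.6% of all windows, and AGGTCA before the second of 3 annotated starts of Car7, against 14.0%. The bases around the HIF core are shown because Car9 is the member known as a HIF target, and capitals mark ACGTG on the reverse strand.
Car9, chr4:43506996-43507023: ctatttccgatgCACGTacagcccgtcc
Col5a1, chr2:27886197-27886224: ccggccccgtccCACGTccgctcccgcc
The Car9 match began 18 bases before its RefSeq start and lies inside the gene as GENCODE annotates it. The Col5a1 match began 216 bases before the start. These matches are descriptions of letters in the window, not of binding.

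Libraries held 49.2 to 119.1 M counts, and the 12 cerebellum libraries 67.4 to 119.1 M (median 86.3 M). Purkinje cell markers (15 genes) summed to 6150 to 11700 CPM (read counts scaled to library size with TMM factors) in cerebellum and to 452 to 1380 CPM in medulla and pons, while hindbrain Hox genes summed to at most 2.13 CPM in cerebellum. The library labelled ASO replicate 3 of cerebellum stood apart by gene length. Relative to the wild type mean, genes with under 2 kb of exons stood at a median log2 difference of 0.60 in it and genes with over 8 kb at -0.49, a gap of -1.10. In the other 11 cerebellum libraries that gap was -0.05 to 0.16. Exonic lengths of the members run from 1695 bases (Hpcal1) to 12760 (Myo15), so the main ASO results are also given without it. In medulla and pons at 18 weeks, Atxn1 went against the labels. The libraries labelled ASO replicate 2 stood at 39.0 and 51.0 CPM, with the other ASO libraries at 13.5 to 24.1 CPM, and those labelled wild type replicate 3 stood at 15.3 and 16.5 CPM. In each case the medulla and the pons library carry the same number in their column names. Levels from those 2 sets are given by label, with no comparison of genotype or treatment tested.

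**Figure D1:**
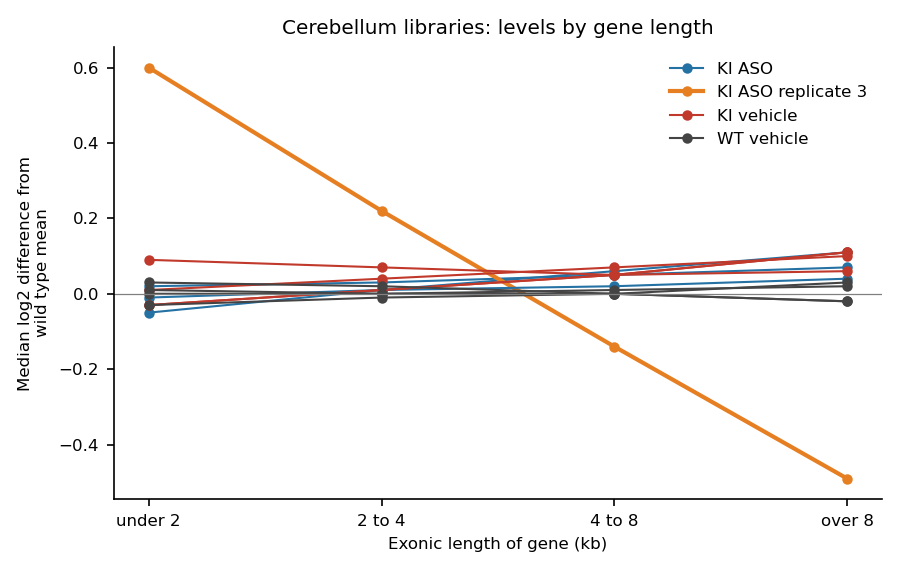
Median log2 difference from the wild type mean (y axis) for genes in 4 classes of exonic length in kb (x axis), where each line is 1 of the 12 cerebellum libraries coloured by group. The library labelled ASO replicate 3 runs from 0.60 for genes under 2 kb to -0.49 for genes over 8 kb, and the other 11 lines stay between -0.05 and 0.11.

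In wild type mice all 7 genes were enriched in cerebellum over the brainstem. Per kilobase of exon, wild type cerebellum held 183 ± 6.05 CPM of Hpcal1, 55.9 ± 1.5 of Rnf19b, 16.1 ± 1.39 of Car7, 5.90 ± 0.242 of Col5a1, 3.35 ± 0.303 of Car9, 0.974 ± 0.0423 of Ccdc63 and 0.537 ± 0.0737 of Myo15 (SD, n = 4). No neighbours in that order overlapped between libraries. The genes therefore ranged from an abundant calcium sensor to a sparse myosin transcript.

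Cerebellum exceeded medulla at 18 weeks by a log2 difference of 3.74 ± 0.277 for Ccdc63, 3.53 ± 0.231 for Car9, 2.78 ± 0.165 for Car7, 2.76 ± 0.197 for Col5a1, 2.13 ± 0.0814 for Rnf19b, 1.81 ± 0.0816 for Hpcal1 and 1.66 ± 0.209 for Myo15 (SE; edgeR quasi-likelihood test, adjusted p from 1.6e-09 to 2.1e-05). Against pons the differences ran from 1.90 ± 0.0819 for Hpcal1 to 3.93 ± 0.278 for Ccdc63 (adjusted p at most 3.2e-06). All 7 were thus called higher against both regions, where 29.3% and 27.6% of all genes tested were called higher. All 7 calls held in every alternative run, including without the library labelled wild type replicate 3, whose Atxn1 goes against its label. The members' choice rested on a fall in cerebellum and the same wild type cerebellum libraries enter here, so a high wild type level is in part what the choice favours.

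In vehicle-treated knockin cerebellum the carbonic anhydrases were lower in every library. Car9 read 7.74, 7.70, 8.57 and 6.86 CPM in wild type replicates 1 to 4 and 1.5, 1.68, 1.49 and 1.22 CPM in vehicle-treated knockin, a log2 difference of -2.38 ± 0.451 (SE). Car7 read 61.7, 52.5, 56.3 and 63.5 CPM in wild type and 35.8, 34.3, 35.2 and 30.2 CPM in knockin, a log2 difference of -0.78 ± 0.0868. The groups did not overlap for either gene, nor for the other 5 members, where 10.1% of genes had knockin libraries wholly below wild type, and Car9 kept 19.1% and Car7 57.9% of the wild type mean.

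Myo15 and Ccdc63 were the other members with falls of more than 4-fold. Myo15 read 6.96, 8.04, 5.77 and 6.63 CPM in wild type and 0.511, 0.492, 0.654 and 0.847 CPM in knockin (log2 difference -3.45 ± 0.685), on 424 to 604 reads per wild type library and 45 to 75 per knockin library. Ccdc63 read 7.2, 7, 7.58 and 6.86 CPM in wild type and 1.52, 1.66, 1.8 and 1.87 CPM in knockin (log2 difference -2.06 ± 0.272). Knockin cerebellum thus held 9.14% of the wild type mean of Myo15 and 23.9% of that of Ccdc63.

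The matrix, ligase and calcium sensor genes fell less in relative terms and from higher levels. Col5a1 read 47.3, 51.8, 51.5 and 49.7 CPM in wild type and 19.8, 16.9, 22.5 and 20.9 CPM in knockin (log2 difference -1.32 ± 0.168). Rnf19b read 161, 158, 166 and 157 CPM in wild type and 93.1, 90.9, 97.5 and 88.0 CPM in knockin (-0.79 ± 0.0751). Hpcal1 read 309, 324, 311 and 299 CPM in wild type and 171, 164, 174 and 165 CPM in knockin (-0.88 ± 0.0989). For these 3 genes the spread within a group was small beside the gap between groups.

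All 7 members passed the filter on low counts and all 7 were past the adjusted threshold of 0.05 in this comparison, where 2.06% of 20350 genes were called lower and 2.71% in either direction. Since this comparison chose them, nothing is read from that count. By size of fall, Myo15 ranked 6, Car9 18, Ccdc63 28, Col5a1 110, Hpcal1 339, Rnf19b 438 and Car7 455 of 20350 genes. In RNA from whole cerebellum, fewer cells of a type and less RNA per cell cannot be told apart.

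**Figure D2:**
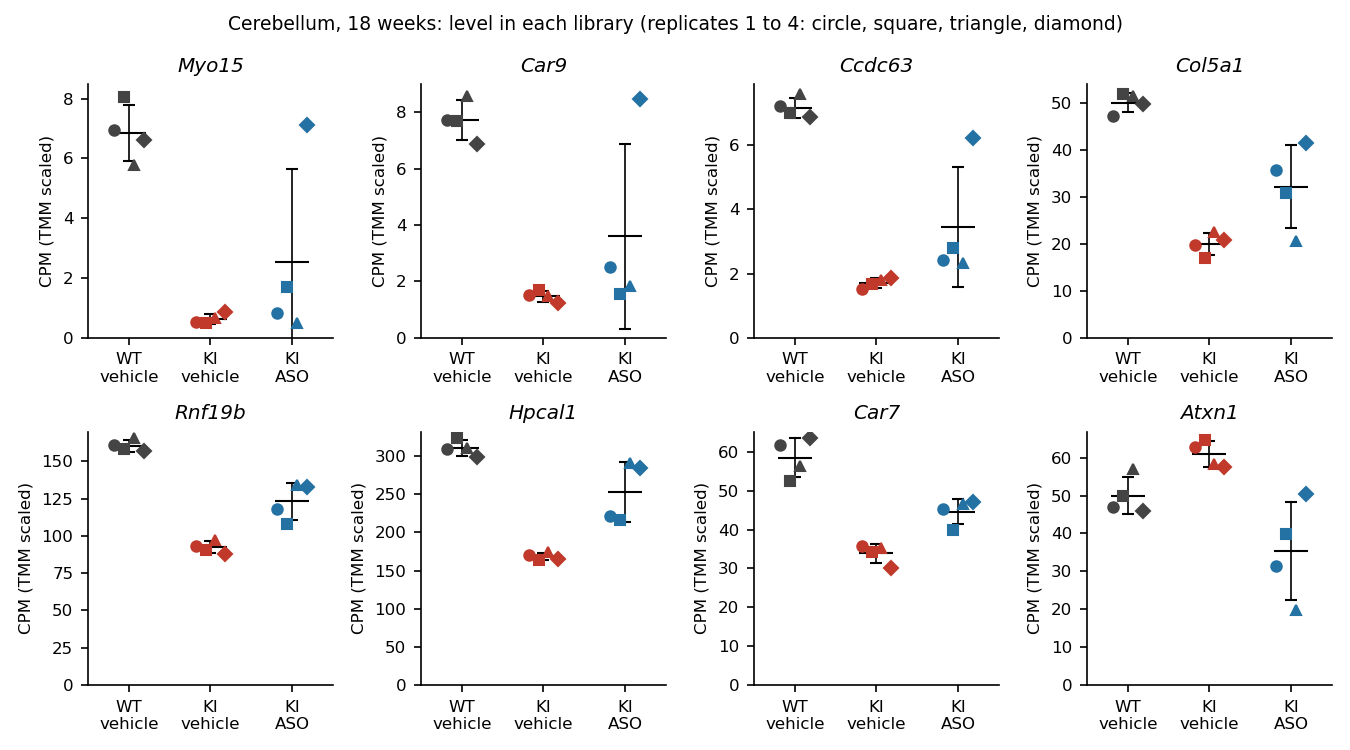
TMM-scaled CPM (y axis, from 0) of the 7 members and Atxn1 in each cerebellum library at 18 weeks for the 3 groups (x axis), with each library as a point and the group mean ± SD (truncated at 0) as a bar. Wild type and vehicle-treated knockin libraries separate for each of the 7 members, while ASO replicate 4 (diamond) reaches 7.12 CPM of Myo15 and 8.48 CPM of Car9 and the other 3 ASO libraries stay at or below 1.70 and 2.51 CPM.

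With the ASO the members were higher on average than with vehicle, but the libraries did not move alike. Atxn1 itself read 31.5, 39.8, 19.8 and 50.3 CPM in ASO replicates 1 to 4, against 57.5 to 64.6 CPM with vehicle and 46.0 to 57.0 CPM in wild type. ASO replicate 4 therefore had the highest Atxn1 of its group, at 101% of the wild type mean, and replicate 3, the library that stood apart by gene length, the lowest.

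Myo15, Car9 and Ccdc63 came near wild type in ASO replicate 4 and held less than 40% of the wild type mean in each of the other 3. Myo15 read 0.833, 1.70, 0.485 and 7.12 CPM in ASO replicates 1 to 4, which is 12.2%, 24.8%, 7.08% and 104% of the wild type mean. Car9 read 2.51, 1.56, 1.84 and 8.48 CPM (32.5%, 20.2%, 23.8% and 110%). Ccdc63 read 2.41, 2.79, 2.33 and 6.22 CPM (33.7%, 38.9%, 32.6% and 86.8%). For Myo15, 2 of 4 ASO libraries lay above all vehicle libraries, for Car9 3 of 4, and for Ccdc63 all 4. The library with near-wild-type levels of these 3 genes was thus the ASO library whose Atxn1 was least lowered.

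Rnf19b, Hpcal1 and Car7 were higher in all 4 ASO libraries than in any vehicle library, and lower than in any wild type library. Ccdc63 and Col5a1 were also below every wild type library, so 5 of 7 members had ASO libraries wholly below wild type, where 3.27% of genes did. Nothing is read from that count, since the same wild type libraries chose the members. Rnf19b read 118, 108, 134 and 133 CPM in ASO replicates 1 to 4 (73.4%, 67.4%, 83.3% and 82.8% of the wild type mean). Hpcal1 read 222, 216, 291 and 284 CPM (71.3%, 69.4%, 93.7% and 91.5%). Car7 read 45.2, 39.8, 46.6 and 47.0 CPM (77.2%, 68.1%, 79.7% and 80.4%). Here replicates 3 and 4 were close together and replicate 2 was the lowest, unlike the pattern of Myo15.

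Col5a1 lay between these patterns, at 35.7, 30.8, 20.7 and 41.5 CPM (71.3%, 61.5%, 41.3% and 82.9%). Its ASO replicate 3 was inside the vehicle range of 16.9 to 22.5 CPM and the other 3 were above it. The share of the knockin fall that the ASO group mean regained was 59.5% for Hpcal1, 45.1% for Rnf19b, 43.8% for Car7, 40.5% for Col5a1, 34.1% for Car9, 31.7% for Ccdc63 and 30.6% for Myo15. For Myo15, Car9 and Ccdc63 that mean describes no library, since 3 lay below it and 1 far above. Without ASO replicate 4 the share was 6.12% for Myo15, 7.99% for Car9, 14.7% for Ccdc63, 30.1% for Col5a1, 40.3% for Rnf19b, 52.2% for Hpcal1 and 40.6% for Car7. Without ASO replicate 3 it was 41.6% for Myo15, 43.5% for Car9, 38.4% for Ccdc63, 53.2% for Col5a1, 39.9% for Rnf19b, 50.6% for Hpcal1 and 41.1% for Car7. The shares of Rnf19b, Hpcal1 and Car7 thus stayed at 39.9% or more when either library alone was left out. With both left out, on 2 ASO libraries, they were lower, at 30.2% for Rnf19b, 35.3% for Hpcal1 and 35% for Car7.

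**Figure D3:**
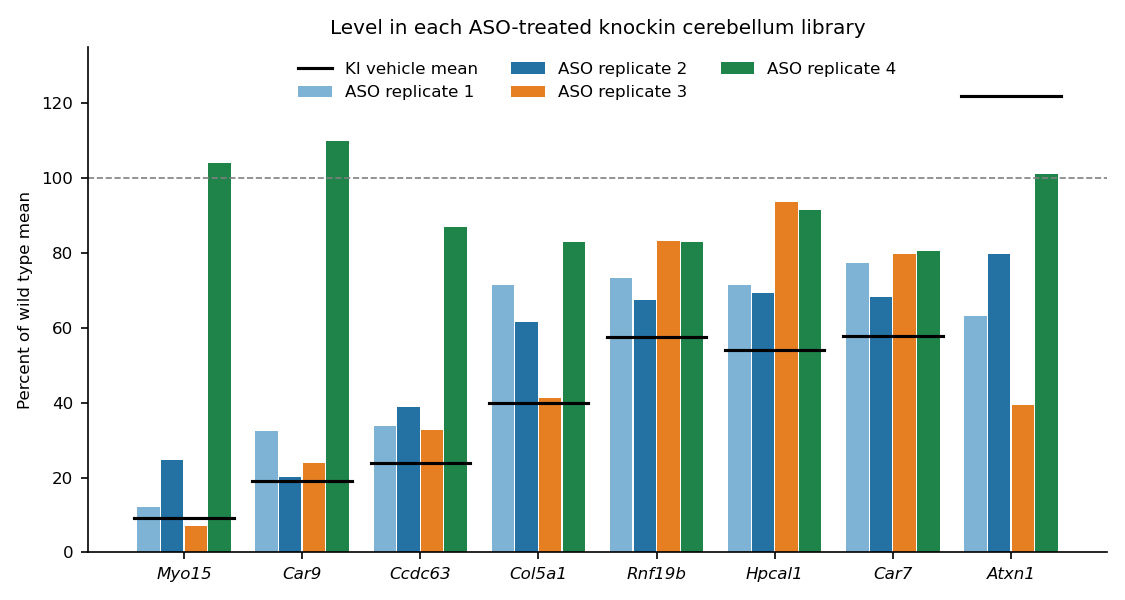
Level in each of the 4 ASO-treated knockin cerebellum libraries as a percent of the wild type mean (y axis, from 0) for the 7 members and Atxn1 (x axis), where bars are libraries, black lines the vehicle-treated knockin mean and the dashed line 100%. Replicate 4 stands at 104% for Myo15 against 7.08% to 24.8% in the other 3, while Car7 runs only from 68.1% to 80.4%.

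The length pattern of ASO replicate 3 bears on these values. Genes with under 2 kb of exons, as Hpcal1, stood at a median log2 difference of 0.60 from wild type in that library, those of 2 to 4 kb, as Rnf19b, Car7 and Car9, at 0.22, those of 4 to 8 kb, as Ccdc63, at -0.14, and those over 8 kb, as Myo15 and Col5a1, at -0.49. Less the median of its length class, Hpcal1 in that library stood at 61.4% of wild type, Rnf19b at 71.2%, Car7 at 68.3%, Col5a1 at 58.1%, Ccdc63 at 36.9%, Car9 at 21.3% and Myo15 at 11.9%. On the same footing ASO replicate 4 stood at 93.1% for Hpcal1, 83.2% for Rnf19b, 80.9% for Car7, 81.1% for Col5a1, 86.4% for Ccdc63, 111% for Car9 and 102% for Myo15. Set against its length class, each of the 7 genes was highest in replicate 4. Atxn1, with 13914 bases of exons, stood at 55.8% in replicate 3 by this measure and at 98.8% in replicate 4.

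Tested over all genes, ASO against vehicle called 0 of the 7 members by edgeR, where it called 10 of 20350 genes (0.0491%). The log2 differences were 2.00 ± 0.660 for Myo15 (adjusted p = 0.43), 1.28 ± 0.440 for Car9 (0.47), 1.00 ± 0.267 for Ccdc63 (0.27), 0.68 ± 0.166 for Col5a1 (0.21), 0.42 ± 0.0748 for Rnf19b (0.096), 0.59 ± 0.0985 for Hpcal1 (0.071) and 0.40 ± 0.0864 for Car7 (0.14) (SE, edgeR). All 7 had an unadjusted p under 0.05, as did 1556 of 20350 genes, and their median log2 difference was 0.68 against 0.024 over all genes. DESeq2 called 5 of the 7: Hpcal1 (adjusted p = 3.2e-05), Rnf19b (0.00019), Car7 (0.0063), Col5a1 (0.024) and Ccdc63 (0.031), among 235 genes in all (1.2% of those with an adjusted p). ASO and vehicle libraries did not overlap for Ccdc63, Rnf19b, Hpcal1 and Car7, where 2.73% of genes had ASO libraries wholly above vehicle. Without ASO replicate 3, Col5a1 joined these 4 genes, where 4.82% of genes were wholly above. The vehicle libraries are those of the comparison that chose the members, so a low vehicle value by chance would appear here as a rise.

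Leaving out ASO libraries changed the calls. Without ASO replicate 3, Hpcal1 (log2 difference 0.51, adjusted p = 0.012), Rnf19b (0.37, adjusted p = 0.016) and Col5a1 (0.84, adjusted p = 0.0061) were called higher. Without ASO replicate 2, Hpcal1 and Rnf19b (adjusted p = 0.016 each) and Car7 (adjusted p = 0.048) were called. Without ASO replicate 4, no member was called, and the log2 difference was 0.67 for Myo15, 0.42 for Car9 and 0.55 for Ccdc63. DESeq2 called 6 members without ASO replicate 3 (all but Car9) and 4 without ASO replicate 4, namely Ccdc63, Rnf19b, Hpcal1 and Car7.

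ASO-treated knockin was also compared with wild type. The wild type libraries are those whose distance from knockin chose the members, so a lower ASO level is in part built into this comparison, and its calls are given as a description. edgeR called 0 of 20350 genes and 0 members in this comparison, with 2235 genes and all 7 members at an unadjusted p under 0.05, and DESeq2 called 419 genes (2.23%) and 4 members: Rnf19b (adjusted p = 4e-04), Car7 (0.0032), Ccdc63 (0.0087) and Col5a1 (0.022). The log2 differences ran from -1.45 ± 0.621 for Myo15 to -0.29 ± 0.0982 for Hpcal1. Without ASO replicate 4, edgeR called 333 genes and 5 members lower than wild type: Myo15 (-2.78, adjusted p = 0.0046), Car9 (-1.97, adjusted p = 0.00052), Ccdc63 (-1.52, adjusted p = 0.00038), Col5a1 (-0.79, adjusted p = 0.036) and Rnf19b (-0.43, adjusted p = 0.02). Without ASO replicate 3 it called 146 genes, among them Rnf19b (-0.43, adjusted p = 0.029) and Car7 (-0.41, adjusted p = 0.047). DESeq2 called 5 members without ASO replicate 3 and 7 without ASO replicate 4.

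Within groups, Rnf19b and Hpcal1 moved together with either of the odd ASO libraries left out. Of the ASO libraries, replicates 3 and 4 were the highest for both genes, and r was not computed without both of them. After the group means were removed, Rnf19b and Hpcal1 had a Pearson r of 0.90 over the 12 cerebellum libraries, 0.85 without ASO replicate 3 and 0.86 without ASO replicate 4. In the same order r was 0.93, 0.95 and 0.72 for Myo15 and Ccdc63, and 0.63, 0.60 and 0.58 for Rnf19b and Car7. Some other pairs depended on those libraries. Car9 and Ccdc63 had an r of 0.88 over 12 libraries and of -0.37 without ASO replicate 4, and Myo15 and Hpcal1 had 0.10 over 12 libraries and 0.81 without ASO replicate 3. Over the 21 pairs of members r ran from -0.20 to 0.93, a description over libraries that differ in depth and in length pattern. Over the same libraries, with group differences kept, the genes most like Myo15 among 13702 were Gm39465 (r = 0.988), Nab2 (0.979), a corepressor of early growth response factors, and Ampd2 (0.977), an AMP deaminase. Nab2 was also the gene most like Ccdc63 (0.990), followed by Reep6 (0.986). Car9 was most like Mybpc3 (0.990), 4930447F24Rik (0.980) and Unc13d (0.979). Col5a1 was most like Ppp1r16b (0.991), Doc2b (0.991), a calcium-binding synaptic protein gene, and Rgs8 (0.989), a regulator of G protein signalling expressed in Purkinje cells. Rnf19b was most like Plpp6 (0.991), Inpp5a (0.990), an inositol phosphatase gene, and Nsg1 (0.989). Hpcal1 was most like Gm13944 (0.991), Ywhah (0.987) and Zdhhc14 (0.985), and Car7 like Spag5 (0.976), Creg1 (0.973) and Id2 (0.969). These r values include the group difference that chose the members. After the group means were removed, Car7 had an r of 0.77, 0.73 and 0.81 with Spag5, Creg1 and Id2. For the genes named with the other members it was 0.89 to 0.98, with the odd ASO libraries kept.

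Cell type markers moved beside the members. Of 15 Purkinje cell markers, 9 were called lower in vehicle-treated knockin cerebellum (median log2 difference -0.69, against 0.01 over all genes), among them Homer3 (-0.90 ± 0.111, adjusted p = 0.0016), a synaptic scaffold, and Car8 (-0.74 ± 0.110, adjusted p = 0.0043), a carbonic anhydrase relative without catalytic activity (SE, edgeR). The 15 markers summed to 10600 to 11700 CPM in wild type, 6150 to 7710 CPM with vehicle, and 8020, 6460, 7330 and 9410 CPM in ASO replicates 1 to 4. ASO replicate 4 was thus the highest of its group in Purkinje cell markers as well as in Myo15, Car9 and Ccdc63. Of 14 granule cell markers 3 were called lower, led by Grm4 (-1.39 ± 0.206, adjusted p = 0.0044), a glutamate receptor, and of 12 astrocyte and Bergmann glia markers 3, led by Aldoc (-0.87 ± 0.118, adjusted p = 0.0027), an aldolase. By DESeq2, 14 Purkinje cell, 6 granule cell and 5 astrocyte and Bergmann glia markers were called lower, where it called 846 of all genes lower and 1290 in either direction. Of 8 molecular layer interneuron markers edgeR called 0 and DESeq2 2, Slc32a1 and Gad1 (both lower and the 2 at an unadjusted p under 0.05). None of the oligodendrocyte (9), microglia (8), endothelial (8), choroid plexus (8), fibroblast (7), ependymal (8) or Hox (7) markers was called by edgeR, and 1 of these, the microglial P2ry12 at 0.25 ± 0.0776, had an unadjusted p under 0.05 and was called by DESeq2. Choroid plexus markers summed to 27.4 to 6920 CPM over the 12 libraries, with wide ranges in all 3 groups. The summed level of microglia markers was 155 to 190 CPM with vehicle and 230, 228, 287 and 171 CPM in ASO replicates 1 to 4. The part of any of these in the members' values was not tested.

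Most relatives of the 7 genes were not called between wild type and vehicle-treated knockin cerebellum, where DESeq2 called 1290 genes and edgeR 2.71% of 20350 genes. At an unadjusted p under 0.05 there were 2911 of these genes. A short list with 0 calls therefore does not show that its genes stayed level. Of 12 other carbonic anhydrases measured, Car8 alone was called by edgeR (lower), and the soluble Car2 (-0.26 ± 0.0836, edgeR adjusted p = 0.14) was called by DESeq2 only. Of 12 bicarbonate, proton and chloride transporters 0 were called by edgeR or DESeq2 (2 at an unadjusted p under 0.05, 1 in each direction). Of 18 HIF target genes 0 were called by edgeR and 1, Hk2, by DESeq2 (2 at an unadjusted p under 0.05, 1 in each direction), with a median log2 difference of -0.01 beside -2.38 for Car9, and Vegfa, a vascular growth factor, stood at 0.06 ± 0.0761.

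Of 21 other unconventional myosins measured, Myo10 alone was called, lower by a log2 difference of -0.55 ± 0.113 (adjusted p = 0.021). Of 7 stereocilia partners of Myo15, Eps8l2 (-0.68 ± 0.110, adjusted p = 0.0074) and the actin bundler Espn (-0.72 ± 0.121, adjusted p = 0.0082) were called lower, while Eps8 (0.13 ± 0.126) and Whrn (-0.25 ± 0.127), which encodes whirlin, were not called. Of 12 genes of outer dynein arms and their docking, relatives of Ccdc63, 0 were called by edgeR or DESeq2 and 0 had an unadjusted p under 0.05. Of 10 other fibrillar collagen genes 0 were called by edgeR and 1, Col11a1 at 1.20 ± 0.370, by DESeq2 (3 at an unadjusted p under 0.05, 2 of them lower). Of 13 other RING-between-RING ligases 0 were called by edgeR and 1, Rnf144b at 0.29 ± 0.0748, by DESeq2 (1 at an unadjusted p under 0.05). Of 9 other neuronal calcium sensors, Kcnip4 (-0.66 ± 0.112, adjusted p = 0.0084) and Kcnip1 (-0.62 ± 0.114, adjusted p = 0.012), potassium channel partners, were called lower, and DESeq2 called Kcnip3 (-0.18 ± 0.0538) lower as well. At an unadjusted p under 0.05 there were 4 of the 9, 3 lower and 1 higher. Between ASO and vehicle, no gene of any of these 20 lists was called by edgeR, with 8 of 15 Purkinje cell, 5 of 8 microglia, 5 of 9 oligodendrocyte, 4 of 12 astrocyte and Bergmann glia and 4 of 14 granule cell markers at an unadjusted p under 0.05, all higher. The median log2 difference was 0.32 for Purkinje cell, 0.34 for microglia and 0.30 for oligodendrocyte markers, beside 0.024 over all genes, and DESeq2 called 0 Purkinje cell markers. Genes of the lists that DESeq2 called higher with ASO included Aldoc, Gfap and Gja1 of astrocytes, the microglial C1qa, Car2 and Slc16a1.

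In the brainstem at 28 weeks, 3 of the 7 genes, Hpcal1, Car7 and Car9, were past the adjusted threshold and lower in vehicle-treated knockin in at least 1 region. For these 3 the fall was thus not confined to cerebellum. Myo15, Ccdc63, Col5a1 and Rnf19b were not past it in either region, and whether their falls are specific to cerebellum was not tested. Hpcal1 in medulla at 28 weeks ran from 94.0 through a median of 117 to 136 CPM in 8 wild type libraries and from 67.0 through 84.7 to 91.7 CPM in 8 vehicle-treated knockin libraries (log2 difference -0.50 ± 0.0666). The groups did not overlap, where 1.91% of genes had knockin libraries wholly below wild type, and the difference was -0.42 in batch 1 and -0.58 in batch 2. Car9 there ran from 0.534 through 1.19 to 1.49 CPM in wild type and from 0.440 through 0.598 to 1.00 CPM in knockin (-0.78 ± 0.221), with overlap. Car7 there stood at -0.21 ± 0.1, not past the threshold, with -0.04 in batch 1 and -0.41 in batch 2, where it was past it. Hpcal1 and Car9 were past the adjusted threshold over both batches, where 9.99% of 20465 genes were called lower and 19.3% in either direction. Of 8 other neuronal calcium sensors in medulla, 7 were also called lower in knockin (median log2 difference -0.32). In pons 3 of 8 were, where 5.65% of genes were called lower. In medulla 4 of the 7 members, all lower and Rnf19b among them, had an unadjusted p under 0.05, as did 6396 of 20465 genes. Car9 was not past the adjusted threshold within either batch alone (-0.74 in batch 1 and -0.83 in batch 2).

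In pons at 28 weeks, Hpcal1 read 101, 96.6, 98.0 and 98.3 CPM in wild type replicates 1 to 4 and 85.0, 88.1, 81.6 and 89.6 CPM in vehicle-treated knockin (log2 difference -0.19 ± 0.0386). Car7 read 8.34, 9.24, 7.78 and 7.39 CPM in wild type and 6.36, 6.50, 6.18 and 6.75 CPM in knockin (-0.35 ± 0.0847). Neither gene's groups overlapped (7.89% of genes had knockin libraries wholly below wild type), and both were past the adjusted threshold, where 5.65% of 20458 genes were called lower and 9.79% in either direction. Car7 was past it in 12 of 17 alternatives and lost it without any 1 of vehicle replicates 1 to 3 or wild type replicates 1 and 2, and Hpcal1 in all 17. Car9 there stood at -0.66 ± 0.319, not past the threshold. Since the choice of members drew on how restricted the falls were to cerebellum, these counts too are descriptions.

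The other 4 genes were not past the adjusted threshold in the brainstem at 28 weeks, though not all estimates were near 0. In medulla and pons at 28 weeks the log2 differences were -0.09 ± 0.153 and -0.07 ± 0.140 for Myo15, 0.26 ± 0.175 and 0.48 ± 0.277 for Ccdc63, 0.00 ± 0.157 and -0.24 ± 0.161 for Col5a1, and -0.07 ± 0.0336 and -0.01 ± 0.0540 for Rnf19b (SE). The 95% intervals reached down to -0.41 for Myo15 and to -0.14 for Rnf19b, both in medulla, beside cerebellar differences of -3.45 and -0.79. The estimates for Col5a1 and Ccdc63 in pons were less precise. Over the alternatives Col5a1 there ran from -0.40 to -0.14, beside -1.32 in cerebellum. Ccdc63 there ran from 0.28 to 0.63, higher in knockin, on 20 to 50 reads per library. Col5a1 in pons, knockin against wild type, was past the threshold in 1 of 17 alternatives. The ages differ, at 18 weeks for cerebellum and 28 for these brainstem libraries, and the difference between regions was not tested.

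**Figure D4:**
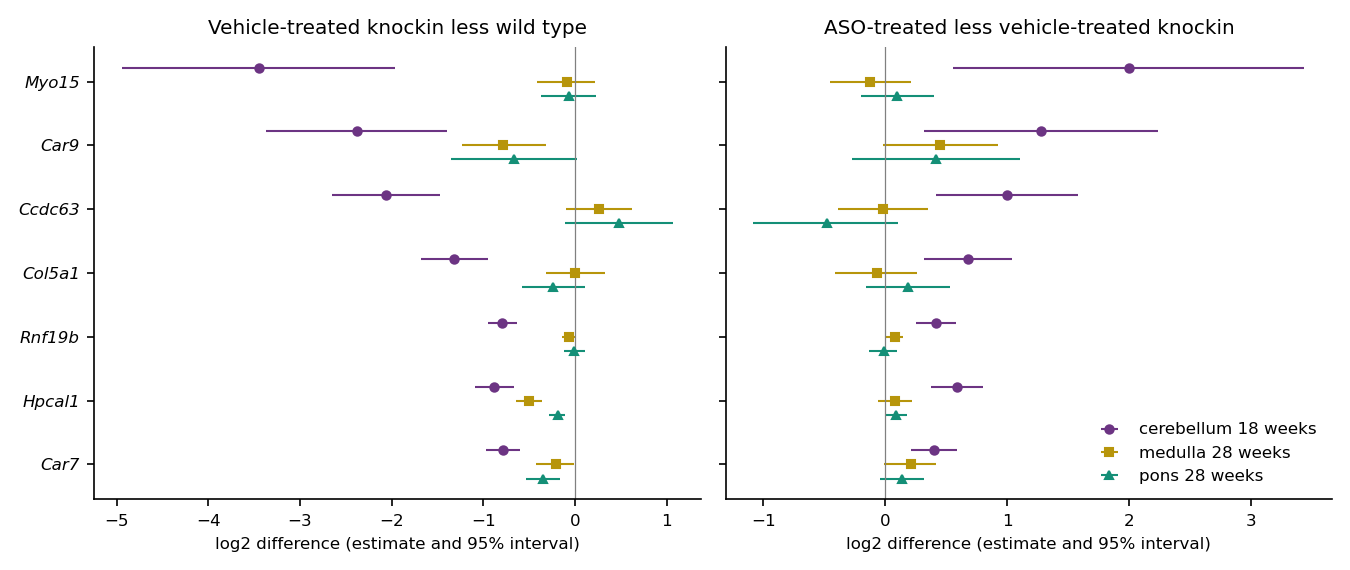
Log2 differences (x axis, edgeR estimate with bars for its 95% interval) of the 7 members (y axis) between vehicle-treated knockin and wild type (left) and between ASO-treated and vehicle-treated knockin (right), for cerebellum at 18 weeks and for medulla and pons at 28 weeks. All cerebellar points lie left of 0 on the left, from -3.45 to -0.78, and right of 0 on the right, from 0.40 to 2.00, while the brainstem points lie between -0.78 and 0.48.

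The ASO left the members' brainstem levels without a call. In medulla at 28 weeks 0 of 7 members were called by edgeR between ASO and vehicle and 0 by DESeq2, with Rnf19b at an unadjusted p under 0.05 (log2 difference 0.08 ± 0.0348, adjusted p = 0.35), where edgeR called 1.69% of genes. In pons 0 of 7 were called by either tool, with Hpcal1 at an unadjusted p under 0.05 (0.09 ± 0.0387, adjusted p = 0.29), where edgeR called 0.0929%. Hpcal1 in medulla, the clearest brainstem fall, stood at 0.08 ± 0.0689 with the ASO, with ASO libraries from 78.2 through 85.4 to 104 CPM. Its 95% interval, -0.06 to 0.22, did not reach the size of the knockin difference (-0.50). Car9 stood at 0.45 ± 0.229 in medulla and 0.42 ± 0.321 in pons, with 95% intervals of -0.02 to 0.93 and -0.27 to 1.11. In both regions the library labelled ASO replicate 2 was high in Atxn1, at 49.4 and 51.0 CPM, beside 25 to 35.7 CPM in the other ASO libraries, and without that library 0 members were called in either region.

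In absolute level, knockin cerebellum stayed above the brainstem for 5 of the 7 genes. Vehicle-treated knockin cerebellum held at least 164 CPM of Hpcal1, 88.0 of Rnf19b, 30.2 of Car7, 16.9 of Col5a1 and 1.52 of Ccdc63, and the highest of all medulla and pons libraries held 136, 44.4, 13.4, 13.4 and 0.810 CPM of the same genes. For Car9 the ranges met, at 1.22 to 1.68 CPM in knockin cerebellum and up to 1.66 CPM in the brainstem. Myo15 went below the brainstem: its 4 vehicle-treated knockin cerebellum libraries held 0.492 to 0.847 CPM, and the lowest medulla or pons library held 0.855 CPM. Wild type cerebellum held 6.85 ± 0.941 CPM of Myo15 (SD, n = 4), medulla 2.53 ± 0.549 at 28 weeks (n = 8) and 2.14 ± 0.260 at 18 weeks (n = 3), and pons 1.46 ± 0.0282 (n = 4) and 1.5 ± 0.446 (n = 3). The neighbours medulla at 28 and 18 weeks, and pons at both ages, did not differ beyond their spread.

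At 18 weeks the brainstem levels by label differed from those at 28 weeks for some members. Hpcal1 in medulla labelled wild type stood at 81.3 to 91.1 CPM at 18 weeks (mean 87.1, n = 3), below the 94.0 to 136 CPM at 28 weeks, and at 86.4 to 94.6 CPM (mean 91.6, n = 3) in vehicle-treated knockin. By label, the medulla fall of Hpcal1 at 28 weeks was thus not seen at 18 weeks. Ccdc63 in ASO-treated pons stood at 0.192 to 0.233 CPM at 18 weeks and at 0.256 to 0.412 CPM at 28 weeks. Rnf19b ran from 32.8 to 43.7 CPM over the 18 medulla and pons libraries at 18 weeks, and Hpcal1 from 64.0 to 97.3 CPM. Ccdc63 ran from 0.192 to 0.738 CPM on 13 to 41 reads, Col5a1 from 3.98 to 12.2 CPM and Car7 from 6.46 to 12.8 CPM. Myo15 ran from 0.855 to 3.02 CPM. Car9 ran from 0.0834 to 1.66 CPM, and its lowest library, pons of vehicle-treated knockin replicate 2, had 4 reads.

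**Figure D5:**
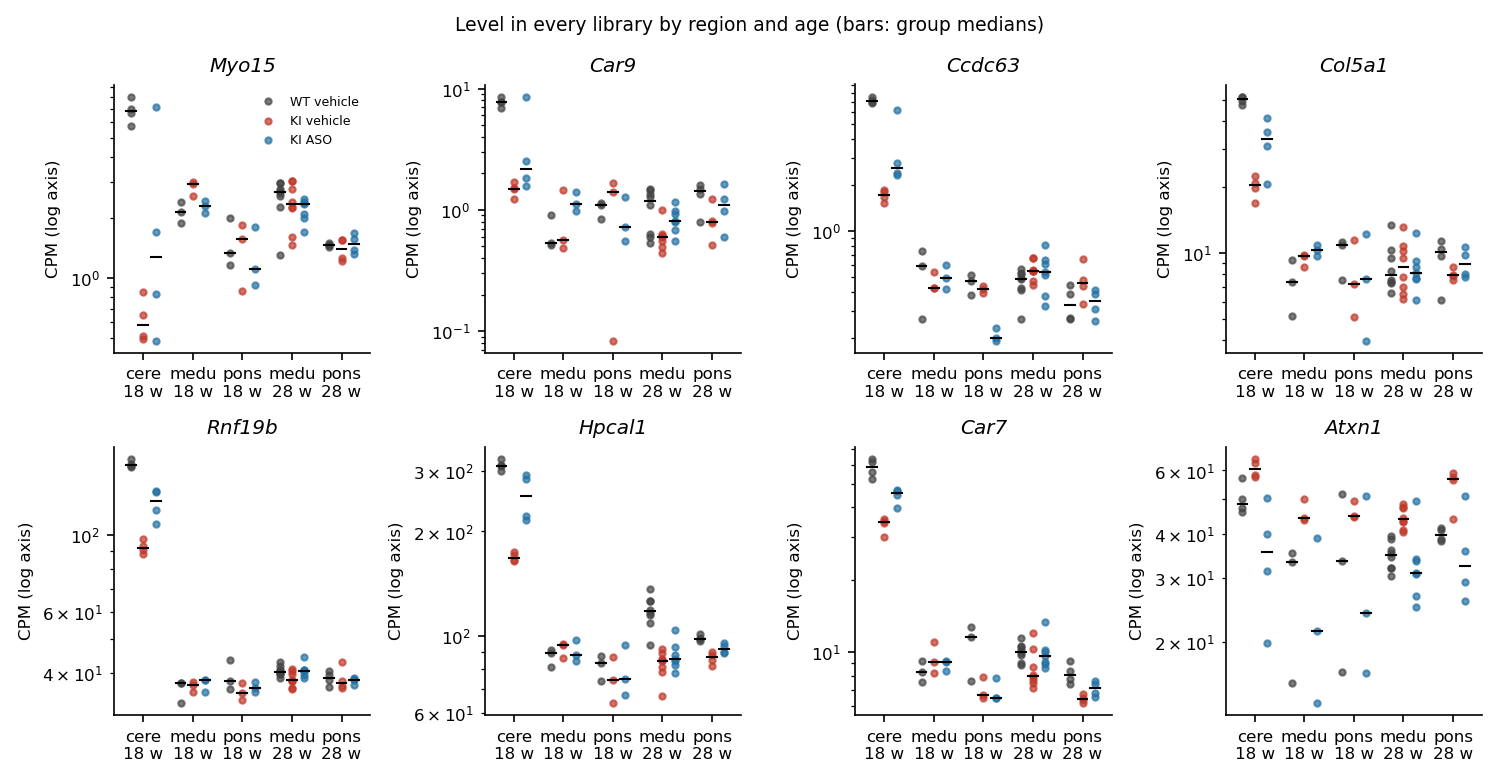
TMM-scaled CPM (y axis, log scale) of the 7 members and Atxn1 in all 65 libraries by region and age (x axis; cere, cerebellum; medu, medulla; w, weeks), with a point per library coloured by group and a bar at each group median. Wild type cerebellum is the highest group for every member, and vehicle-treated knockin cerebellum lies above medulla and pons for Hpcal1, Rnf19b, Car7, Col5a1 and Ccdc63 but below them for Myo15 (0.492 to 0.847 CPM against at least 0.855 CPM).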

How the data were processed

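RNA of dissected cerebellum, medulla and pons was sequenced in 65 stranded libraries, per the labels' protocols. The deposited table holds the authors' raw read counts for 49670 gene IDs. Per the submitters' processing notes, the tools were CASAVA 1.8, HISAT2 2.0.2, featureCounts of Subread, DESeq2 1.14.1 and R 3.3.3, with genome build GRCm38. Pair and strand settings are not given in the sources used here, and 70.0% to 78.6% of counts from 1 to 20 were even, which would follow from counting the 2 reads of a pair separately. Symbols for 49325 IDs came from a gene name table, coordinates and exonic lengths from GENCODE vM21. The members and the 20 gene lists were chosen with earlier results of these data known.

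Counts were tested with edgeR 4.0.16 in R 4.3.3 (TMM scaling, filterByExpr at 10 reads, robust quasi-likelihood fits, Benjamini-Hochberg adjustment over all genes, calls under 0.05), with the 3 groups of a region and age in 1 fit and batch as a term in medulla at 28 weeks. Levels are CPM with TMM factors over all 65 libraries. Length classes compare log2(CPM + 0.1) with the wild type mean over genes of at least 1 CPM. DESeq2 1.42.0, RLE scaling, no filter, fits of 2 groups, a replicate block, single batches and libraries left out were alternatives. The 95% intervals of log2 differences use the t distribution with the fit's degrees of freedom. No comparison of genotype or treatment was tested in medulla or pons at 18 weeks, where Atxn1 contradicts labels. At 28 weeks ASO replicate 2 of medulla and of pons was kept, though its Atxn1 was as high as in vehicle-treated knockin. Named genes are the members, Atxn1, up to 3 genes of smallest p per list in cerebellum (knockin against wild type), and the 3 genes of highest Pearson r per member over the 12 cerebellum libraries (average log2 CPM of at least 1). Vegfa, Eps8 and the list genes DESeq2 called with ASO, and the counts at an unadjusted p, were added for the description. On simulated counts for cerebellum, knockin against wild type, among 20075 genes, the procedure recovered 34.3% of genes changed 1.5-fold and 59.6% of those changed 2-fold.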

Additional observations from a re-analysis of the deposited data

Results flagged for a closer look

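Of 72 groups of 4 to 10 libraries examined for the 7 genes and Atxn1, 7 had a library far from the others, and chance flags about 1 in 20 groups. In ASO-treated knockin cerebellum, replicate 4 stood far above the other 3 libraries for Car9 (8.48 CPM, the others 1.56 to 2.51) and Ccdc63 (6.22 CPM, the others 2.33 to 2.79). Its Purkinje cell markers summed to 9410 CPM, against 6460 to 8020 in the other 3, and its Atxn1 was 50.3 CPM, against 19.8 to 39.8. The part of either in its Car9 and Ccdc63 levels was not tested.

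In medulla at 28 weeks, ASO replicate 6 was high for Car7 (13.4 CPM, the others 8.60 to 10.2) and Rnf19b (44.4 CPM, the others 38.8 to 40.7). That library summed to 1250 CPM of Purkinje cell markers and 1340 CPM of granule cell markers, against at most 878 and 804 in the other ASO libraries, and to 39.5 CPM of Hox genes, against 32.4 to 263. ASO replicate 2 was high for Atxn1 (49.4 CPM, the others 25 to 34). Vehicle-treated knockin replicate 1 was high for Car9 (1.00 CPM, the others 0.440 to 0.626). Wild type replicate 5 was low for Myo15 (1.30 CPM, the others 2.25 to 2.98), and its Hox genes summed to 40.9 CPM, against 201 to 343.

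Both remaining flags involve libraries at 18 weeks whose labels Atxn1 contradicts, and neither difference was tested. Ccdc63 was higher in every ASO than every vehicle library in cerebellum (log2 ratio of means 1.01) and lower in every one in pons (-1.0, where 5.38% of genes had ASO libraries wholly below vehicle), a gap of 2.01, where the pons values rest on 13 to 28 reads. Myo15 was lower in every vehicle-treated knockin than every wild type library in cerebellum (-3.45) and higher in every one in medulla (0.41, where 5.76% of genes had knockin libraries wholly above wild type), a gap of 3.86.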

How the results depend on the processing

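All 7 members kept a lower level in knockin than wild type cerebellum in all 19 alternatives, and a higher level with ASO than vehicle there in all 19. The knockin fall in these libraries chose the members, and the ASO comparisons share its vehicle or wild type libraries. These directions and the member calls in cerebellum are therefore descriptions. The total of genes called moved more than these directions. In cerebellum, knockin against wild type called 552 genes, 1290 by DESeq2, 3161 with 2 groups fitted and 303 with the replicate block, and 277 to 2914 (5 to 7 members) with 1 library left out. Myo15 was not past the threshold in 6 alternatives (no filter, and without any 1 of the 4 vehicle replicates or wild type replicate 2) and Car9 in 2 (without vehicle replicate 1 or 4). ASO against vehicle called 10 genes, 235 by DESeq2 (5 members), 2 with 2 groups, 4 with the block, and 4 to 124 (0 to 3 members) without 1 library. ASO against wild type called 0, 419 by DESeq2 (4 members) and 0 to 333 (0 to 5 members) without 1 library. In medulla at 28 weeks, knockin against wild type called 3944 genes but 644 (1 member) in batch 1. ASO against vehicle there called 346, 618 by DESeq2, 162 with 2 groups, 0 in batch 1, 222 in batch 2, 138 without the 4 libraries low in Hox genes (chosen after seeing the data) and 611 without ASO replicate 2. In pons at 28 weeks, knockin against wild type called 2002 genes, 3006 by DESeq2, and 831 to 4259 (1 to 2 members) without 1 library. ASO against vehicle there called 19, 620 by DESeq2, 76 with no filter, 3 with 2 groups, 8 with the block and 4 to 299 without 1 library. DESeq2 without ASO replicate 3 or 4 of cerebellum, chosen after seeing the data, called 3804 and 1318 genes between knockin and wild type, 476 (6 members) and 273 (4 members) between ASO and vehicle, and 1407 (5 members) and 987 (7 members) between ASO and wild type. The causes were not tested. Small uncalled ASO differences changed sign: in medulla Car7 (-0.05 in batch 1), Col5a1 (0.09 in batch 2) and Ccdc63 (0.07 in batch 2, 0.05 without the libraries low in Hox genes, 0.06 without ASO replicate 2), and in pons Rnf19b (-0.04 to 0.06 without 1 library). Libraries with the same replicate label did not deviate together in every pair of any comparison (for ASO against vehicle in cerebellum, r from -0.49 to 0.41 over 4 pairs). Replicate labels were therefore not taken to pair them. The further number in the column names was not used in this check. With 45 reads in its lowest vehicle library, Myo15 has the least precise ASO value.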
